A study of Mus musculus with 9 samples.

Results

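The liver response of hypothyroid mice to injected triiodothyronine (T3) was described from 6 of the 9 libraries of the study, the 3 labelled MMI+T3 and the 3 labelled MMI, which were counted together in 1 table. The libraries were taken by their labels, and every gene of that table was considered: 17758 genes were listed and 14109 had enough counts to be tested. Both groups were male C57BL/6 mice that drank water with 0.1% methimazole, an inhibitor of thyroid hormone synthesis, for 20 days, and the study's methods name sodium perchlorate in the same water. The MMI+T3 mice were then given T3 once a day for 5 days and were killed 24 h after the last injection. The MMI mice were the hypothyroid controls, so that every difference below is one of hormone given back to animals on the goitrogen, not of hypothyroid against normal animals, and the sources used here do not say whether they were given vehicle. The study reports that serum T3 was lowered in MMI mice, so the controls were not free of hormone. The sources give the age range of the study's mice as a whole, and do not state that each library was 1 mouse. The tests therefore weigh the differences against variation among libraries, which may be technical.

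T3 is the active thyroid hormone. It enters the hepatocyte nucleus and binds the receptors TRα and TRβ, of which TRβ is the main form in liver, and the receptors sit on DNA with RXR, recruiting corepressors without hormone and coactivators with it. In liver the hormone is known for its control of lipid synthesis and oxidation, cholesterol and bile acid turnover, mitochondrial energy use, the iodothyronine deiodinase Dio1 and the hormone's own plasma carriers. It also acts through the pituitary, where growth hormone and thyrotropin depend on it.

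Levels are given as CPM, the counts of a gene scaled to the library total. Total counts ran from 17256776 to 22599227 per library, and between 17254 and 17384 of the listed genes had at least 1 count. The third MMI library was the shallowest and had the highest share of counts from the mitochondrial chromosome, 4.99%, where the other 5 libraries had 3.29% to 3.76%. It also stood apart on the second principal component, which carried 11.9% of the variance of log2 CPM, while the first, with 67.0%, separated the groups. CPM were computed after trimmed-mean scaling. Changes are log2 fold changes of MMI+T3 over MMI from edgeR's quasi-likelihood test with their standard errors (SE), n = 3 in each group, and a gene is called at a Benjamini-Hochberg adjusted p under 0.05 over all tested genes. The authors' tables do not normalise for transcript length, so levels of different genes are not compared.

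T3 shifted the level of 2400 of the 14109 genes, which is 17.0% of those tested. The called genes were 1387 higher (9.83%) and 1013 lower (7.18%), and these shares are the background against which the counts of gene lists below are read. In 4993 genes (35.4%) the 3 libraries of each group did not overlap, and 2379 of these were also called. A change of more than 2-fold was called for 546 genes (3.87%), 361 higher and 185 lower. The median log2 fold change over all tested genes was -0.0212, and it was 1.11 over the genes called higher and -0.99 over those called lower. The tails were uneven: 84 called genes had a log2 fold change above 5 and 12 had one below -5. Without the first MMI+T3 library 658 genes were called lower. Of the 84, 31 lay on chromosome 4 and 26 were genes or pseudogenes of the major urinary proteins (Mup).

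**Figure D1:**
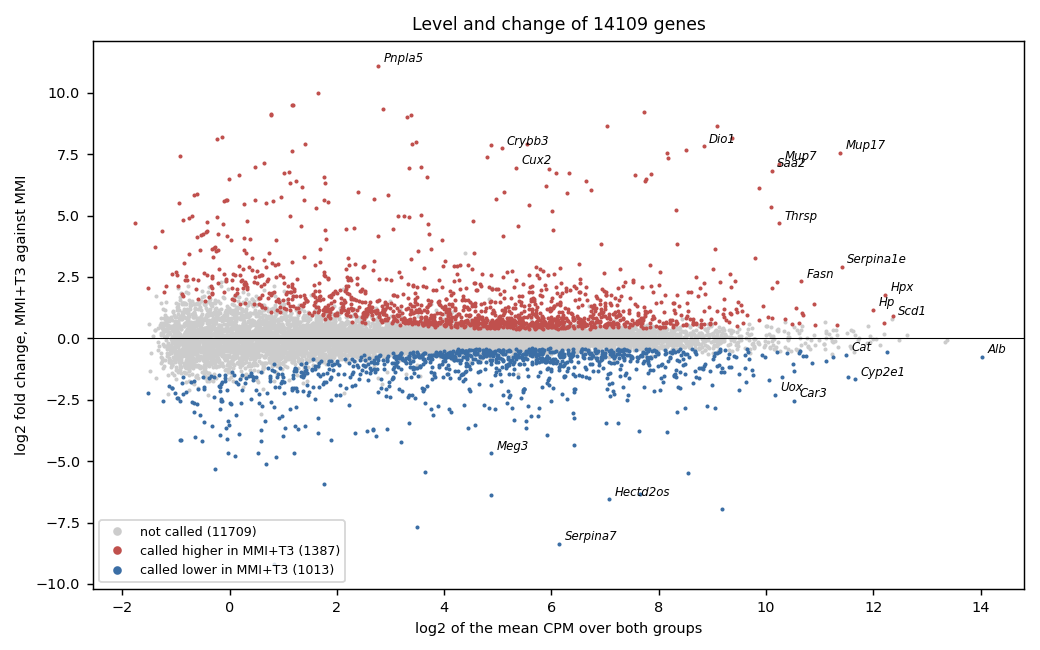
Log2 fold change of MMI+T3 against MMI for the 14109 tested genes (y axis) against the log2 of the mean CPM of both groups (x axis), with the 1387 genes called higher in red, the 1013 called lower in blue and the rest in grey. The upper tail reaches further than the lower one, with 84 genes above 5 and 12 below -5.

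Apart from the Mup genes, the most strongly induced genes were of several kinds, and the leading member was a lipase that was not detected in the MMI libraries. Pnpla5, a lipid droplet triglyceride lipase of the patatin-like family, had 0 counts in all 3 MMI libraries and 194, 293 and 319 counts in the MMI+T3 libraries (10.3, 14.6 and 16.0 CPM), a level at least 284-fold higher when 3 counts are taken as the floor over the MMI group. Its neighbour and relative Pnpla3, a lipase and acyltransferase of lipid droplets known as a target of SREBP-1c and ChREBP, was at 0.14, 0.662 and 0.33 CPM in the MMI libraries and 73.9, 81.0 and 125 CPM in the MMI+T3 libraries (log2 fold change 7.90, SE 0.37, adjusted p = 4.84e-07). Both genes lie close to each other on chromosome 15 (GRCm38; Pnpla5 at chr15:84112356-84123175, minus strand; Pnpla3 at chr15:84167837-84187236, plus strand). Every MMI+T3 library was above 70 CPM for Pnpla3 and every MMI library below 1 CPM.

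Kirrel3, a cell adhesion protein of the immunoglobulin superfamily known from synapses, likewise had 0 counts in the MMI libraries and 99, 120 and 152 in the MMI+T3 libraries, at least 131-fold higher. Wfdc16, a small protein with a whey acidic protein domain, went from 2 counts over the MMI group to 1223 over the MMI+T3 group, a ratio of 646 with a 95% counting interval of 178 to 5340. A1bg, a plasma glycoprotein whose mouse gene is known for female-biased liver expression, had 1 count in the MMI group against 308, a ratio of 325 (57.9 to 12900). These intervals cover counting error only. All 3 genes were near silent in the MMI libraries and were seen in every MMI+T3 library.

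Dio1, which turns T4 into T3 and also inactivates both hormones, rose from 4.82, 3.22 and 4.07 CPM to 879, 877 and 978 CPM (log2 fold change 7.82, SE 0.21, adjusted p = 1.38e-08). The treated libraries were close to each other, and the SE was the smallest among the 15 extreme inductions. Crybb3, a crystallin of the lens, was at 0.0468, 0.353 and 0.551 CPM in the MMI libraries and 67.0, 65.3 and 68.1 CPM in the MMI+T3 libraries (log2 fold change 7.74, SE 0.33, adjusted p = 2.93e-07), with treated libraries that were almost equal. Cep126, a protein of centrosomes and the base of cilia, was at 0.327, 0.132 and 0.551 CPM in the MMI libraries and 42.2, 71.2 and 53.3 CPM in the MMI+T3 libraries (log2 fold change 7.40, SE 0.35, adjusted p = 4.84e-07). The groups of these genes were far apart, with no treated library near the range of the controls.

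Slc22a7, the organic anion transporter Oat2, was at 4.82, 0.882 and 3.52 CPM in the MMI libraries and 474, 576 and 656 CPM in the MMI+T3 libraries (log2 fold change 7.54, SE 0.47, adjusted p = 2.78e-06). The second MMI library was the lowest of the 6, while the treated libraries were close to each other. Ces4a, a carboxylesterase, had the largest SE of the extreme inductions and was at 0.0936, 0.353 and 0.275 CPM in the MMI libraries and 91.2, 70.5 and 12.3 CPM in the MMI+T3 libraries (log2 fold change 7.87, SE 0.84, adjusted p = 9.55e-05). The third treated library lay several-fold below the other 2 and still far above all controls. Sult5a1, a sulfotransferase, was at 1.64, 0.706 and 0.661 CPM in the MMI libraries and 124, 119 and 124 CPM in the MMI+T3 libraries (log2 fold change 6.91, SE 0.27, adjusted p = 2.15e-07), and its treated libraries were almost equal.

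**Figure D2:**
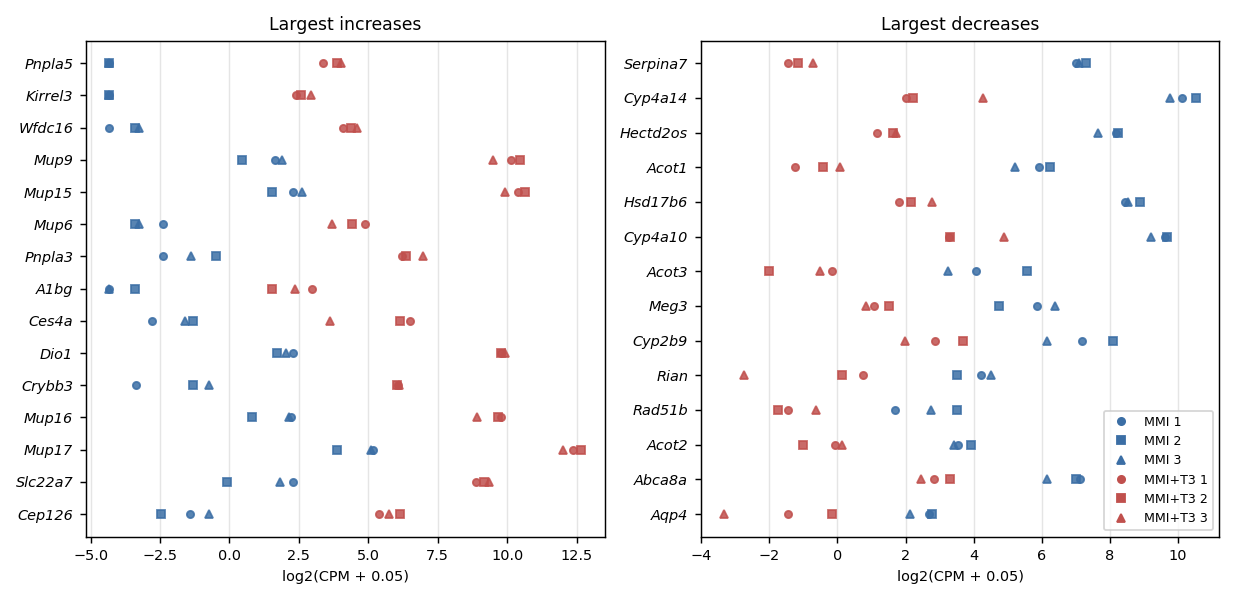
Level of the most induced and most repressed genes described here as log2(CPM + 0.05) (x axis), each point 1 library, MMI in blue and MMI+T3 in red. Only genes whose groups did not overlap were eligible, so the gap between the groups is a condition of the choice.

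The largest block of induced genes was the Mup cluster. Major urinary proteins are small lipocalins that male mice make in the liver under growth hormone and excrete as pheromone carriers. Along chromosome 4 (chr4:59964294-61883296, GRCm38), 31 adjacent tested genes were all called higher, with a median log2 fold change of 6.66. No other run of adjacent tested genes called in 1 direction was as long, the next having 6. The run was found after the values were seen. Because the members are near-identical copies, reads may have been shared out among them by the counting, and the level of each single member is uncertain.

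How alike the members are can be seen upstream of their starts. The 250 bases before the RefSeq start (GRCm38.p6, 5' to 3' on the strand of the gene) are shown for 3 of the most induced members, since they are the regulatory sequence next to the genes with the largest response: Mup15 at chr4:61439705-61439954 on the minus strand, Mup17 at chr4:61595833-61596082 on the minus strand and Mup9 at chr4:60421953-60422202 on the minus strand. No base is in capitals, as none of the 3 holds AGGTCA, the half-site of many nuclear receptors, on either strand.
Mup15: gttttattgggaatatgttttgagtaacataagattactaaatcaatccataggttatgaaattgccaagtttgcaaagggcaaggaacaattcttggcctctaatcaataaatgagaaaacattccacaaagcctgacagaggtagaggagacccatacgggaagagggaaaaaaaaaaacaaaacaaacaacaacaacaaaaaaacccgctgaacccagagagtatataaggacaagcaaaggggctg
Mup17: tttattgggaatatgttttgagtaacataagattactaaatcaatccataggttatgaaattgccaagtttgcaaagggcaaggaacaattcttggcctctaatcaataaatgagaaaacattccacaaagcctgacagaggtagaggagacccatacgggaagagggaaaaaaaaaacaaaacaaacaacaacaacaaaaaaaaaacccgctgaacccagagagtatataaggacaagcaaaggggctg
Mup9: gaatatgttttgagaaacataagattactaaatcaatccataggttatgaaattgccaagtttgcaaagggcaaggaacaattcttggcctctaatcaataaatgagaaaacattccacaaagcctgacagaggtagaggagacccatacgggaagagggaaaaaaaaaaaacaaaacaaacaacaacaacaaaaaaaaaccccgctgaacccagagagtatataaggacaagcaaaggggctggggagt
In a global alignment, Mup15 and Mup17 were identical at 97.6% of 253 columns, Mup15 and Mup9 at 91.9% and Mup17 and Mup9 at 93.0%. The upstream sequence of Mup6, another member induced to the same degree, was 69.6% to 72.7% identical to these 3, and that of Dio1, taken as an unrelated gene, was 47.5% to 48.4% identical to them in the same alignment. Gaps counted as columns that differ, those at the ends included, and the windows of the Mup members are shifted against each other. The shares therefore understate how alike the members are where their windows pair.

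Mup9 was at 3.09, 1.32 and 3.69 CPM in the MMI libraries and 1128, 1408 and 715 CPM in the MMI+T3 libraries (log2 fold change 8.66, SE 0.42, adjusted p = 5.06e-07). Mup15 was at 4.82, 2.87 and 6.11 CPM in the MMI libraries and 1350.4, 1597 and 975 CPM in the MMI+T3 libraries (log2 fold change 8.16, SE 0.34, adjusted p = 2.92e-07). Mup17, with the most counts of the run after T3, was at 36.2, 14.7 and 34.1 CPM in the MMI libraries and 5249.5, 6468 and 4118 CPM in the MMI+T3 libraries (log2 fold change 7.54, SE 0.40, adjusted p = 7.53e-07). In each of these the second MMI library was the lowest of the controls and the third MMI+T3 library the lowest of the treated. The same order held for the sum of the 31 genes, which was 281, 101 and 206 CPM in the MMI libraries and 17380.0, 19930.0 and 12180.0 CPM in the MMI+T3 libraries. Mup6, with few counts, was at 0.14, 0.0441 and 0.0551 CPM in the MMI libraries and 29.1, 21.3 and 12.96 CPM in the MMI+T3 libraries (log2 fold change 7.93, SE 0.47, adjusted p = 1.81e-06).

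The pseudogenes of the cluster moved with the genes. Mup-ps12 had 2 counts over the MMI group and 1165 over the MMI+T3 group (ratio 615, 170 to 5080), and Mup-ps14 had 1 and 861 (ratio 909, 163 to 35900). Of the 20 annotated protein-coding Mup genes tested, 17 were called higher, 1 lower and 2 were not called. All 20 summed to 4351, 2696 and 3686 CPM in the MMI libraries and 20970, 23870 and 15350 CPM in the MMI+T3 libraries. The 17 alone summed to 213, 77.8 and 161 CPM in the MMI libraries and 16580, 19050 and 11530 CPM in the MMI+T3 libraries. Most Mup counts of the controls thus lay in members that were not called higher. The member called lower was Mup21, which lies outside the run and was at 205, 97.8 and 165 CPM in the MMI libraries and 48.2, 64.2 and 38.7 CPM in the MMI+T3 libraries (log2 fold change -1.63, SE 0.26, adjusted p = 0.00157), all treated libraries below all controls.

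**Figure D3:**
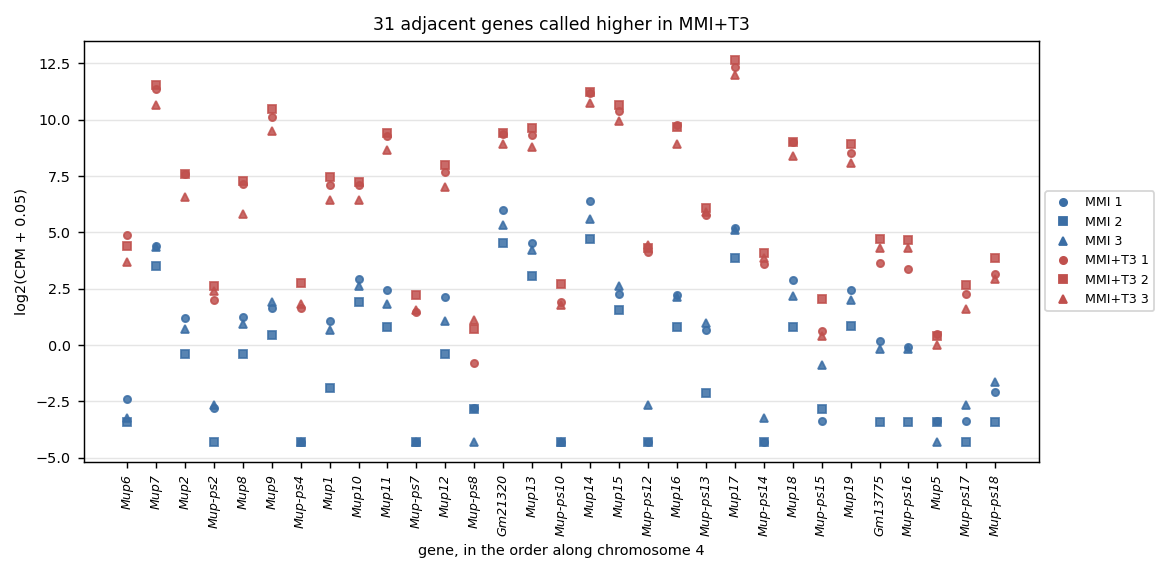
Level of the 31 adjacent genes of the Mup cluster as log2(CPM + 0.05) (y axis) in their order along chromosome 4 (x axis), each point 1 library, MMI in blue and MMI+T3 in red. The median over the 31 genes is 0.221 to 2.06 CPM in the 3 MMI libraries and 60.3 to 149 CPM in the 3 MMI+T3 libraries.

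Among the repressed genes, Serpina7, which encodes the plasma carrier thyroxine-binding globulin, changed most, from 129.7, 156 and 137 CPM to 0.318, 0.397 and 0.553 CPM (log2 fold change -8.35, SE 0.21, adjusted p = 1.38e-08). It lies on chromosome X (chrX:139079257-139085236, minus strand). Hsd17b6, a hydroxysteroid dehydrogenase that acts on androgens and retinol, was at 346, 469.7 and 370.4 CPM in the MMI libraries and 3.44, 4.42 and 6.83 CPM in the MMI+T3 libraries (log2 fold change -6.33, SE 0.27, adjusted p = 2.93e-07). Every treated library was below 7 CPM for it and every control above 300 CPM. Hectd2os, an antisense transcript of Hectd2, was at 289.7, 305 and 202 CPM in the MMI libraries and 2.17, 3.03 and 3.21 CPM in the MMI+T3 libraries (log2 fold change -6.56, SE 0.24, adjusted p = 1.32e-07), a value that is uncertain because the sources used here do not say whether reads were counted by strand.

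Cyp4a14 and Cyp4a10, which hydroxylate the end carbon of fatty acids and are textbook PPARα targets, were both among the extremes. Cyp4a14 was at 1117, 1474 and 877 CPM in the MMI libraries and 3.97, 4.62 and 19.2 CPM in the MMI+T3 libraries (log2 fold change -6.96, SE 0.60, adjusted p = 2.3e-05). Cyp4a10 was at 784, 823 and 597 CPM in the MMI libraries and 9.69, 9.94 and 29.9 CPM in the MMI+T3 libraries (log2 fold change -5.47, SE 0.44, adjusted p = 1.39e-05). In both the third treated library was several times above the other treated libraries and still far below the controls.

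Abca8a, a lipid transporter, was at 140.4, 129.8 and 71.7 CPM in the MMI libraries and 7.15, 9.89 and 5.48 CPM in the MMI+T3 libraries (log2 fold change -3.92, SE 0.29, adjusted p = 9.16e-06). Rad51b, a DNA repair protein, was at 3.18, 11.2 and 6.72 CPM in the MMI libraries and 0.318, 0.248 and 0.603 CPM in the MMI+T3 libraries (log2 fold change -4.16, SE 0.53, adjusted p = 0.00032). Aqp4, a water channel, was at 6.46, 6.79 and 4.35 CPM in the MMI libraries and 0.318, 0.845 and 0.0502 CPM in the MMI+T3 libraries (log2 fold change -3.83, SE 0.55, adjusted p = 0.000759). In these 3 genes the groups were well apart.

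Some of the strongest changes came from neighbours on the chromosome. Besides the Mup run, 6 runs of at least 5 adjacent tested genes were called in 1 direction, and like it they were found after the values were seen. The acyl-CoA thioesterases Acot2, Acot1, Acot4, Acot3 and Acot6 on chromosome 12 (chr12:83987861-84111349), which release free fatty acids from their CoA esters in the cytosol, mitochondria and peroxisomes, were all lower with a median log2 fold change of -3.96. Acot1 was at 60.5, 75.1 and 37.4 CPM in the MMI libraries and 0.371, 0.696 and 1.0 CPM in the MMI+T3 libraries (log2 fold change -6.36, SE 0.35, adjusted p = 1.03e-06). Acot3 was at 16.7, 47.0 and 9.36 CPM in the MMI libraries and 0.847, 0.199 and 0.653 CPM in the MMI+T3 libraries (log2 fold change -5.43, SE 0.66, adjusted p = 0.000246). Acot4, with the most counts of the run, was at 131, 169.5 and 121 CPM in the MMI libraries and 27.1, 26.7 and 38.2 CPM in the MMI+T3 libraries (log2 fold change -2.20, SE 0.19, adjusted p = 2.13e-05). No treated library reached the lowest control in any of these genes. As near copies, they may share reads.

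Further along chromosome 12 (chr12:109541001-110278172), Meg3, Rian, Mirg, Gm34667 and Dio3os were all lower (median -4.24). Meg3, Rian and Mirg are noncoding RNAs of the imprinted Dlk1-Dio3 region, which ends at the gene of the deiodinase that inactivates thyroid hormones. Meg3 was at 58.4, 26.6 and 84.3 CPM in the MMI libraries and 2.06, 2.78 and 1.76 CPM in the MMI+T3 libraries (log2 fold change -4.67, SE 0.41, adjusted p = 2.37e-05). Rian was at 18.6, 11.3 and 22.6 CPM in the MMI libraries and 1.64, 1.04 and 0.1 CPM in the MMI+T3 libraries (log2 fold change -4.24, SE 0.52, adjusted p = 0.00027). In both the second MMI library was the lowest control and remained several-fold above every treated library. Dio3 itself had too few counts to be tested.

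Of the other runs, that on chromosome 8 held the carboxylesterases Ces1d, Ces1e, Ces1f and Ces1g with the predicted genes Gm45909 and Gm45727 (6 genes, median -1.78). That on chromosome 9 held the glutathione transferases Gsta4, Gsta1 and Gsta2 with Gm3776 and Gm10639 (-2.32). The last were Lamb3 to Plxna2 on chromosome 1 (5 genes, -2.47) and Tff3 to Pde9a on chromosome 17 (5 genes, 2.40). The run on chromosome 1 holds Hsd11b1, which regenerates active glucocorticoid, and G0s2, an inhibitor of the lipase ATGL. G0s2 was at 179.9, 144 and 139 CPM in the MMI libraries and 20.8, 14.5 and 14.2 CPM in the MMI+T3 libraries (log2 fold change -3.22, SE 0.19, adjusted p = 1.63e-06). Hsd11b1 was at 702, 729.5 and 431 CPM in the MMI libraries and 201, 229.7 and 203 CPM in the MMI+T3 libraries (log2 fold change -1.56, SE 0.20, adjusted p = 0.000353). Both had groups that were apart. Copies within the Ces1 and Gsta families may share reads.

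Promoters were searched for AGGTCA, the core word that thyroid receptors are known to bind, and for its direct repeat with 4 free bases between the copies. CCAAT, a word bound by NF-Y, and TATAAA, the TATA box, were searched as general promoter elements. The search covered both strands of the 250 bases before the RefSeq start (GRCm38.p6), which was found for 10424 of the tested genes by symbol. AGGTCA is contained in the repeat. Of 246 genes called more than 2-fold higher 47 held AGGTCA (19.1%), of 116 called more than 2-fold lower 11 did (9.48%), and of all tested genes 1135 did (10.9%). Over every called gene the shares were 13.9% of those higher and 12.4% of those lower, and over all 27025 promoters of the RefSeq table the share was 13.8%. The full repeat was in none of the 10424 promoters and in 3 of the 27025. CCAAT was in 39.0% of genes higher, 38.5% lower and 36.5% of all tested, and TATAAA in 7.41%, 9.66% and 6.79%.

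Of the named extremes, 3 whose promoters held AGGTCA are shown, with that word, or TGACCT where it is on the opposite strand, in capitals. They are A1bg (chr15:60921271-60921520 on the minus strand), Ces4a (chr8:105131550-105131799 on the plus strand) and Cyp2b9 (chr7:26173159-26173408 on the plus strand), the first 2 among the inductions and the last among the repressions.
A1bg: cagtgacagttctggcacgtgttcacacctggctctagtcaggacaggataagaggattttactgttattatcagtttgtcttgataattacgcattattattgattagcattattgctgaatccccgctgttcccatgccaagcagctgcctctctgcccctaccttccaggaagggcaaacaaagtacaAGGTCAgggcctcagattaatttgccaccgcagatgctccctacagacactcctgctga
Ces4a: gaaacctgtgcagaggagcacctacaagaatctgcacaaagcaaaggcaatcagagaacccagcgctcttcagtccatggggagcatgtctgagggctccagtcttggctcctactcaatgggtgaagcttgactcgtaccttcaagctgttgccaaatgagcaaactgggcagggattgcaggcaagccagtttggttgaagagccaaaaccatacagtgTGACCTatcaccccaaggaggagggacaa
Cyp2b9: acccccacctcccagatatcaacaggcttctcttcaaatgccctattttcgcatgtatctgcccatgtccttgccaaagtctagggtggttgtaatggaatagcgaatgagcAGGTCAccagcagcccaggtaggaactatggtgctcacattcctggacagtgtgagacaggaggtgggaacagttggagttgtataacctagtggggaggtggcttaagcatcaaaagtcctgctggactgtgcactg
The word starts 59 bases before the start of A1bg, 29 before that of Ces4a and 138 before that of Cyp2b9. Meg3, among the repressions, held it too and is not shown. There it is on the opposite strand, 141 bases before a RefSeq start inside the gene model. RefSeq's start for A1bg lies inside the span of the GENCODE gene model, as do those for Mup6, Mup15 and Mup17 above. A match is a description of these letters and does not show a binding site. Cyp2b9, a female-biased cytochrome P450 inducible through CAR, was at 146, 271 and 71.9 CPM in the MMI libraries and 7.31, 12.9 and 3.92 CPM in the MMI+T3 libraries (log2 fold change -4.34, SE 0.52, adjusted p = 0.000202), and the second MMI library was the highest.

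In CPM, which are relative to the library, few genes made up much of the summed gains and losses. Abundant genes weigh most in such sums, and no baseline for this concentration was computed. Gains in mean CPM summed to 171900.0 CPM over 6743 genes and losses to -150200.0 CPM over 7366 genes. The 80 largest gains made up 50% of all gains and the 106 largest losses 50% of all losses, and called genes carried 71.2% of the gains and 61.6% of the losses. The 10 genes with the largest gains went from 13470.0 to 46350.0 CPM in sum. Among them were Mup17, the heme carrier Hpx, the hemoglobin carrier Hp, Serpina1e, Mup7, Saa2 and Fasn.

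Hpx was at 2301, 1904 and 2251 CPM in the MMI libraries and 8332, 6172 and 7672 CPM in the MMI+T3 libraries (log2 fold change 1.78, SE 0.18, adjusted p = 7.26e-05). Serpina1e, a copy of alpha-1-antitrypsin that may share reads with its family, was at 1153, 199 and 578 CPM in the MMI libraries and 6522, 5105 and 2808 CPM in the MMI+T3 libraries (log2 fold change 2.90, SE 0.54, adjusted p = 0.00367). Scd1, the stearoyl-CoA desaturase, was also among these 10, but at 3701, 4770.1 and 2960.5 CPM in the MMI libraries and 4852, 8861 and 6259 CPM in the MMI+T3 libraries it did not pass the test (adjusted p = 0.0504). Hpx and Serpina1e separated the groups, and the second MMI library was lowest in both.

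The 10 genes with the largest losses went from 50930.0 to 25410.0 CPM. The largest was albumin, Alb, at 22003, 21675 and 19056 CPM in the MMI libraries and 13172, 11875 and 12242 CPM in the MMI+T3 libraries (log2 fold change -0.75, SE 0.17, adjusted p = 0.012). Car3, a carbonic anhydrase of liver and muscle, was at 3320.3, 2237 and 1999 CPM in the MMI libraries and 330.0, 723 and 234 CPM in the MMI+T3 libraries (log2 fold change -2.55, SE 0.38, adjusted p = 0.000912). Uox, the urate oxidase that mice have and humans lack, was at 2013, 2128 and 1612 CPM in the MMI libraries and 364, 400.1 and 408 CPM in the MMI+T3 libraries (log2 fold change -2.30, SE 0.16, adjusted p = 7.37e-06). All 3 had every treated library below every control. The others included Cyp2e1, Cyp3a11, Cyp1a2, the tryptophan dioxygenase Tdo2 and the peroxisomal thiolase Acaa1b.

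Gene lists were then read across pathways and cell types. Of the 96 lists, macrophage markers, cholesterol synthesis, Mup genes, thyroid hormone response genes, fatty acid synthesis and acute phase proteins had most of their tested members called higher, and PPARα targets, mitochondrial fatty acid oxidation, ketone body genes and peroxisomal fatty acid oxidation had most called lower. Lists for the respiratory chain, the ribosome, the proteasome, endothelial cells and stellate cells were at or below the background. The lists share members with each other.

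**Figure D4:**
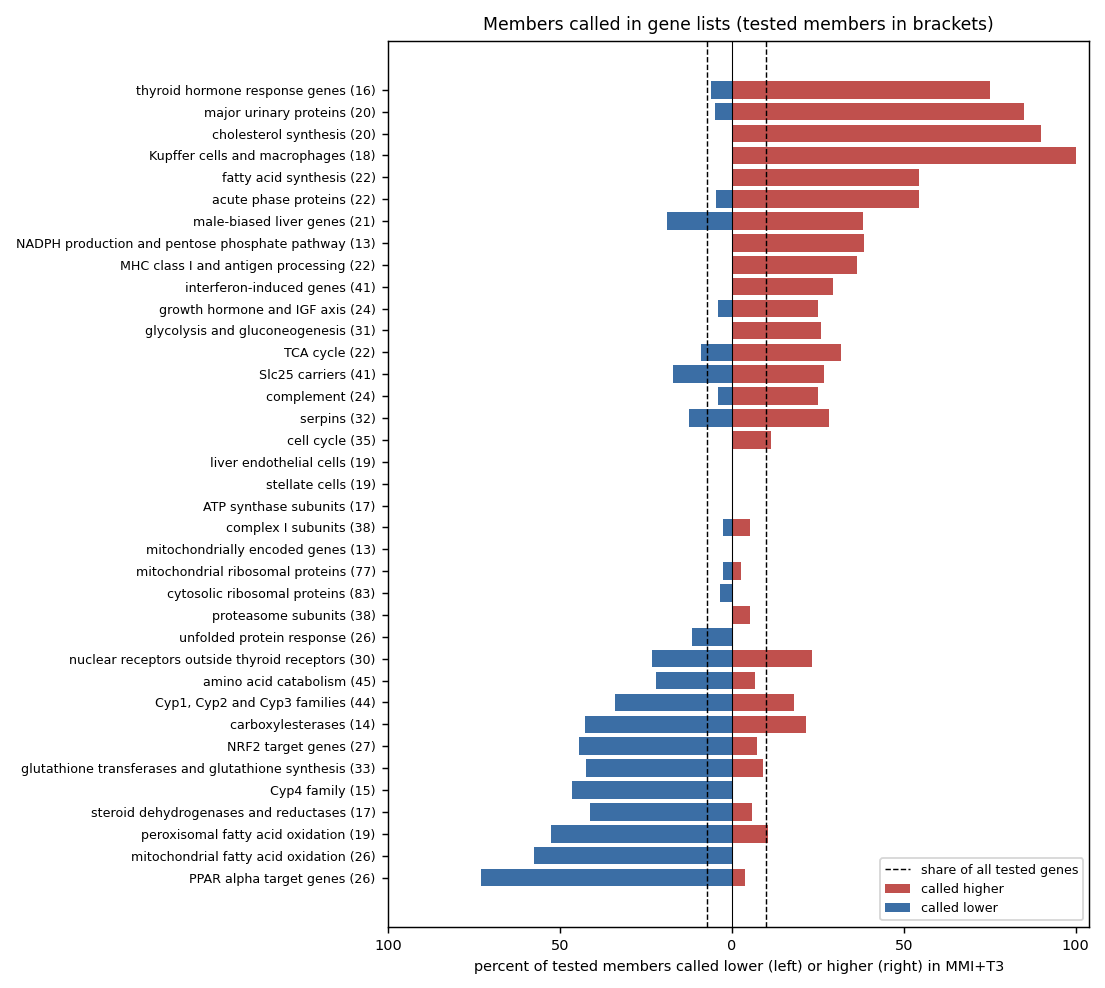
Percent of tested members called higher (red, right) and lower (blue, left) in a selection of 37 of the 96 gene lists, with the number of tested members in brackets and dashed lines at the shares of all tested genes, 9.83% higher and 7.18% lower. Macrophage markers and cholesterol synthesis lie far to the right, PPARα targets far to the left, and ribosomal and respiratory lists stay near 0.

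Genes that textbooks list as targets of thyroid hormone had 12 higher and 1 lower of 16 tested, median log2 fold change 2.36. The list was written with results of these data known, so its count is not independent evidence of a direction. Thrsp, the Spot 14 protein of lipogenic tissues, was at 77.4, 113 and 81.6 CPM in the MMI libraries and 1997, 2243 and 2749.7 CPM in the MMI+T3 libraries (log2 fold change 4.68, SE 0.22, adjusted p = 4.84e-07). Me1, the cytosolic malic enzyme that supplies NADPH, was at 172, 179 and 151 CPM in the MMI libraries and 1246, 1783 and 1819 CPM in the MMI+T3 libraries (log2 fold change 3.27, SE 0.19, adjusted p = 1.63e-06). Both had all treated libraries far above all controls. The member called lower was Angptl4, whose values are given with the PPARα targets. The members not called were Cpt1a, Slc16a6 and Klf9, with log2 fold changes of -0.37 ± 0.17 (adjusted p = 0.162), 0.43 ± 0.25 (adjusted p = 0.274) and 0.09 ± 0.15 (adjusted p = 0.761).

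Genes that handle the hormone moved in both directions (3 higher and 5 lower of 15 tested, median log2 fold change -0.016). Transthyretin, Ttr, a further plasma carrier, was at 3116, 2822 and 3195 CPM in the MMI libraries and 1731, 1810.4 and 1927 CPM in the MMI+T3 libraries (log2 fold change -0.74, SE 0.15, adjusted p = 0.00601). Slco1a4, an organic anion transporter that takes up iodothyronines, was at 114, 82.5 and 104.27 CPM in the MMI libraries and 29.8, 28.0 and 64.3 CPM in the MMI+T3 libraries (log2 fold change -1.30, SE 0.29, adjusted p = 0.00978). The transporter Slc16a10 (MCT10) was at 116, 105.30 and 93.1 CPM in the MMI libraries and 165, 137 and 178 CPM in the MMI+T3 libraries (log2 fold change 0.61, SE 0.15, adjusted p = 0.0153), a call that was lost without the first or the third MMI+T3 library. The groups did not overlap in these 3. The members of this list called lower were 3 without the first MMI, the second MMI or the third MMI+T3 library, and those called higher were 1 without the first MMI+T3 library.

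Of the receptors themselves, Thrb was at 44.5, 57.1 and 44.8 CPM in the MMI libraries and 36.7, 42.7 and 34.9 CPM in the MMI+T3 libraries (log2 fold change -0.36, SE 0.15, adjusted p = 0.125) and Thra had a log2 fold change of -0.21 ± 0.16 (adjusted p = 0.429), neither of which passed the test. Of 21 receptors and coregulators, 2 were higher and none lower, with a median log2 fold change of -0.045. Ppargc1b, a coactivator of mitochondrial and lipogenic genes, was at 5.05, 5.69 and 6.99 CPM in the MMI libraries and 10.01, 10.6 and 13.7 CPM in the MMI+T3 libraries (log2 fold change 0.96, SE 0.20, adjusted p = 0.00804). All treated libraries were above all controls for Ppargc1b.

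Other nuclear receptors were split, with 7 higher and 7 lower of 30 tested, median log2 fold change 0.083. Ppard, the widely expressed PPAR, was at 18.2, 19.5 and 22.5 CPM in the MMI libraries and 148, 146 and 192 CPM in the MMI+T3 libraries (log2 fold change 3.01, SE 0.16, adjusted p = 8.59e-07). Esr1, the estrogen receptor, was at 11.6, 17.6 and 7.49 CPM in the MMI libraries and 95.7, 91.0 and 91.9 CPM in the MMI+T3 libraries (log2 fold change 2.92, SE 0.25, adjusted p = 2.3e-05). Pparg, the adipogenic PPAR, was at 24.1, 31.3 and 23.1 CPM in the MMI libraries and 11.1, 9.59 and 10.95 CPM in the MMI+T3 libraries (log2 fold change -1.31, SE 0.16, adjusted p = 0.000281). All 3 had groups apart. Nr3c1, the glucocorticoid receptor, had a log2 fold change of 0.93 ± 0.14 (adjusted p = 0.00113), and Nr0b2, the bile acid-induced repressor SHP, one of -1.01 ± 0.14 (adjusted p = 0.000607). Ppara (0.03 ± 0.20, adjusted p = 0.947), Hnf4a (0.17 ± 0.15, adjusted p = 0.488) and Nr1h4, which encodes FXR (0.01 ± 0.14, adjusted p = 0.98), did not pass the test.

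Among liver transcription factors (6 higher and 3 lower of 39 tested, median log2 fold change 0.068), Cebpb, a factor of the acute phase and gluconeogenesis, was at 99.7, 179 and 198 CPM in the MMI libraries and 529.5, 519 and 711 CPM in the MMI+T3 libraries (log2 fold change 1.89, SE 0.25, adjusted p = 0.00039). Hes6, a Notch pathway factor, was at 55.1, 59.1 and 50.3 CPM in the MMI libraries and 211, 177 and 222 CPM in the MMI+T3 libraries (log2 fold change 1.89, SE 0.14, adjusted p = 9.18e-06). Both were higher in every treated library. Creb3l3, a membrane-bound factor induced by fasting, was at 308, 296 and 316 CPM in the MMI libraries and 179, 159 and 102 CPM in the MMI+T3 libraries (log2 fold change -1.07, SE 0.19, adjusted p = 0.00322). Bcl3, a nuclear IκB protein, was at 25.7, 24.7 and 24.5 CPM in the MMI libraries and 110.0, 123.25 and 128 CPM in the MMI+T3 libraries (log2 fold change 2.27, SE 0.13, adjusted p = 1.08e-06). Neither of these had overlapping groups, and Bcl3 had almost equal controls.

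In lipid metabolism, more genes of fatty acid synthesis were called higher than lower, and more genes of fatty acid oxidation were called lower than higher. Fatty acid synthesis had 12 higher and 0 lower of 22 tested, median log2 fold change 0.83. Acacb, the acetyl-CoA carboxylase at the mitochondrial surface whose product blocks fatty acid entry, was at 51.5, 78.4 and 55.9 CPM in the MMI libraries and 263, 315 and 339 CPM in the MMI+T3 libraries (log2 fold change 2.30, SE 0.19, adjusted p = 1.5e-05). Elovl6, which elongates palmitate, was at 69.8, 115 and 72.0 CPM in the MMI libraries and 235, 479 and 411 CPM in the MMI+T3 libraries (log2 fold change 2.13, SE 0.28, adjusted p = 0.00038). Their groups were apart, although the second MMI library was the highest control and the first treated library the lowest treated one in both genes. Srebf1 and Mlxipl, which encode the lipogenic factors SREBP-1 and ChREBP, had log2 fold changes of 0.59 ± 0.28 (adjusted p = 0.193) and 0.85 ± 0.19 (adjusted p = 0.0113).

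Synthesis of glycerolipids had 2 higher and 6 lower of 24 tested, median log2 fold change -0.094, so that most members were not called. Those higher were 1 without the first MMI, the second MMI+T3 or the third MMI+T3 library. The members lower included enzymes of phosphatidylcholine synthesis. Chka, choline kinase, was at 315, 199 and 176 CPM in the MMI libraries and 73.3, 79.5 and 86.2 CPM in the MMI+T3 libraries (log2 fold change -1.53, SE 0.21, adjusted p = 0.000502). Chpt1, cholinephosphotransferase, was at 592, 628 and 362 CPM in the MMI libraries and 197, 207 and 182 CPM in the MMI+T3 libraries (log2 fold change -1.43, SE 0.20, adjusted p = 0.000638). Outside this list, Chdh, which diverts choline to betaine in mitochondria, was at 369, 456 and 353 CPM in the MMI libraries and 96.1, 88.0 and 86.2 CPM in the MMI+T3 libraries (log2 fold change -2.12, SE 0.15, adjusted p = 6.02e-06). All treated libraries were below all controls in the 3 genes.

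Mitochondrial fatty acid oxidation had 0 higher and 15 lower of 26 tested, median log2 fold change -0.65. Acadm, the medium-chain dehydrogenase, was at 570.2, 564 and 443 CPM in the MMI libraries and 136, 122 and 141 CPM in the MMI+T3 libraries (log2 fold change -1.98, SE 0.15, adjusted p = 1.13e-05). Crat, carnitine acetyltransferase, was at 88.8, 115 and 79.8 CPM in the MMI libraries and 33.2, 17.3 and 29.5 CPM in the MMI+T3 libraries (log2 fold change -1.83, SE 0.23, adjusted p = 0.00032). Slc25a20, the carnitine-acylcarnitine carrier, was at 152, 145 and 138 CPM in the MMI libraries and 83.8, 83.9 and 80.7 CPM in the MMI+T3 libraries (log2 fold change -0.81, SE 0.12, adjusted p = 0.00083). The spread among treated libraries was small beside the gap to the controls, with the second MMI+T3 library lowest for Crat. Peroxisomal oxidation had 2 higher and 10 lower of 19 tested, median log2 fold change -0.57: Crot was at 932, 791 and 677 CPM in the MMI libraries and 236, 231 and 184 CPM in the MMI+T3 libraries (log2 fold change -1.88, SE 0.17, adjusted p = 3.39e-05), while Abcd3, a peroxisomal importer of fatty acyl-CoA, was higher at 485, 430.1 and 358 CPM in the MMI libraries and 808, 918 and 871 CPM in the MMI+T3 libraries (log2 fold change 1.03, SE 0.16, adjusted p = 0.001). Peroxisomal members called higher were 1 without the first MMI, the first MMI+T3 or the third MMI+T3 library.

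PPARα targets as a list had 1 higher and 19 lower of 26 tested, median log2 fold change -1.18. Vnn1, a pantetheinase, was at 69.8, 79.2 and 53.2 CPM in the MMI libraries and 8.79, 9.94 and 9.95 CPM in the MMI+T3 libraries (log2 fold change -2.82, SE 0.17, adjusted p = 2.09e-06). Angptl4, an inhibitor of lipoprotein lipase, was at 88.3, 88.8 and 111 CPM in the MMI libraries and 7.68, 12.7 and 19.7 CPM in the MMI+T3 libraries (log2 fold change -2.84, SE 0.28, adjusted p = 5.84e-05). Both separated the groups, and the third MMI+T3 library was the highest of the treated for Angptl4. The list shares members with both oxidation lists and the Acot and Cyp4 families, so these counts are not separate evidence. Ketone body genes followed (2 higher and 5 lower of 9 tested, median log2 fold change -0.68). Aacs, which uses acetoacetate for lipid synthesis, was at 72.4, 48.0 and 36.4 CPM in the MMI libraries and 212, 168 and 219 CPM in the MMI+T3 libraries (log2 fold change 1.93, SE 0.23, adjusted p = 0.00021). Ketone body genes called higher were 1 without the first MMI+T3 library.

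Acyl-CoA thioesterases had 2 higher and 5 lower of 11 tested, median log2 fold change -0.14. Acot11, a thioesterase that carries a START lipid-binding domain, was at 4.12, 2.6 and 3.69 CPM in the MMI libraries and 111, 121 and 147 CPM in the MMI+T3 libraries (log2 fold change 5.19, SE 0.21, adjusted p = 2.15e-07), every treated library far above the controls, whereas the 5 clustered Acot genes were lower. Acot7, the other member called higher, was at 24.2, 24.5 and 22.5 CPM in the MMI libraries and 31.3, 30.6 and 37.7 CPM in the MMI+T3 libraries (log2 fold change 0.48, SE 0.13, adjusted p = 0.031), a call lost when any library was left out. Lipid droplet genes were divided as well (5 higher and 6 lower of 19 tested, median log2 fold change -0.51). Hsd17b13, a droplet-coating retinol dehydrogenase, was at 451, 483 and 324 CPM in the MMI libraries and 124, 95.3 and 149 CPM in the MMI+T3 libraries (log2 fold change -1.77, SE 0.20, adjusted p = 0.000169). Plin2, the main droplet coat of hepatocytes, was at 444, 449 and 457 CPM in the MMI libraries and 298, 306 and 269 CPM in the MMI+T3 libraries (log2 fold change -0.63, SE 0.13, adjusted p = 0.00676). Mgll, which hydrolyses monoacylglycerol, was at 151, 124 and 223 CPM in the MMI libraries and 378, 451 and 515 CPM in the MMI+T3 libraries (log2 fold change 1.43, SE 0.22, adjusted p = 0.00101). The groups of all 3 were apart. The number of droplet genes called higher, 5, was 2 without the second MMI+T3 library and 3 without the first MMI or the third MMI+T3 library.

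Few genes of the respiratory chain were called. Among nuclear genes, 2 of 38 complex I subunits were higher and 1 lower. The former were 0 without the first MMI, the second MMI+T3 or the third MMI+T3 library and 1 without the second MMI library, and the latter 0 without the first MMI, the third MMI, the first MMI+T3 or the second MMI+T3 library. With all libraries edgeR called 0 of 11 complex IV subunits, 17 ATP synthase subunits and 13 mitochondrially encoded genes. At an unadjusted p under 0.05, 1, 2 and 0 of these passed, 1, 2 and 0 by DESeq2, and 0, 0 and 0 by limma-voom. The summed level of the mitochondrially encoded genes was 29800.0, 28690.0 and 40280.0 CPM in the MMI libraries and 31040.0, 33850.0 and 30080.0 CPM in the MMI+T3 libraries, so that the groups overlapped and the third MMI library was highest. Cycs, cytochrome c, was at 92.5, 77.7 and 80.4 CPM in the MMI libraries and 120.5, 147 and 131 CPM in the MMI+T3 libraries (log2 fold change 0.67, SE 0.14, adjusted p = 0.00607). Mitochondrial ribosomal proteins had 2 higher and 2 lower of 77, below the background. Their ranges over the alternatives were 0 to 2 higher and 1 to 4 lower, with 0 without the second MMI+T3 or the third MMI+T3 library and 1 without the first MMI, the second MMI or the first MMI+T3 library for those higher and 1 without the first MMI or the first MMI+T3 library and 4 without the third MMI library for those lower.

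The TCA cycle was above it, with 7 higher and 2 lower of 22 tested, median log2 fold change 0.17. The members lower were 1 without the first MMI, the second MMI or any MMI+T3 library, and also 1 with DESeq2 size factors, no filter, limma-voom or the replicate number as a block. Idh3a, the catalytic subunit of the NAD-dependent isocitrate dehydrogenase, was at 30.6, 29.2 and 28.4 CPM in the MMI libraries and 157, 156 and 154 CPM in the MMI+T3 libraries (log2 fold change 2.40, SE 0.12, adjusted p = 6.03e-07). Idh2, its NADP-dependent counterpart in mitochondria, was at 242, 273 and 219 CPM in the MMI libraries and 92.4, 78.6 and 91.2 CPM in the MMI+T3 libraries (log2 fold change -1.48, SE 0.14, adjusted p = 4.38e-05). These isocitrate dehydrogenases moved in opposite directions, each with libraries that stayed close within a group. Citrate synthase, Cs, was at 153, 155 and 136 CPM in the MMI libraries and 253, 287 and 299 CPM in the MMI+T3 libraries (log2 fold change 0.92, SE 0.13, adjusted p = 0.000774).

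Shuttles and carriers at the inner membrane changed one by one. Gpd2, the mitochondrial glycerol 3-phosphate dehydrogenase of the shuttle long known to respond to thyroid hormone, was at 10.6, 17.6 and 17.5 CPM in the MMI libraries and 80.5, 98.4 and 95.1 CPM in the MMI+T3 libraries (log2 fold change 2.59, SE 0.20, adjusted p = 1.08e-05). Ucp2, an inner membrane carrier of the uncoupling protein family, was at 21.2, 22.6 and 32.1 CPM in the MMI libraries and 79.9, 65.8 and 84.2 CPM in the MMI+T3 libraries (log2 fold change 1.60, SE 0.18, adjusted p = 0.000132). Slc25a45, a carrier of the same superfamily, was at 17.0, 14.7 and 20.0 CPM in the MMI libraries and 111, 129.7 and 135 CPM in the MMI+T3 libraries (log2 fold change 2.86, SE 0.16, adjusted p = 9.99e-07). Each had all treated libraries above all controls. Of the aspartate-glutamate carriers, Slc25a12 rose (1.33 ± 0.18, adjusted p = 0.000413) and Slc25a13 fell (-0.79 ± 0.19, adjusted p = 0.018), the latter without a call when either of the first 2 MMI libraries or the first or the third MMI+T3 library was left out. Over the whole Slc25 family the counts were 11 higher and 7 lower of 41. These were 7 higher without the first MMI library or either of the first 2 MMI+T3 libraries, and 4 lower without the first MMI+T3 library.

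In carbohydrate metabolism, 8 of 31 genes of glycolysis and gluconeogenesis were higher and none lower (median 0.37), a count that was 5 without the first MMI library. Eno1, an enolase, was at 435, 520.2 and 397 CPM in the MMI libraries and 817, 1030.3 and 999 CPM in the MMI+T3 libraries (log2 fold change 1.07, SE 0.16, adjusted p = 0.00101). Pfkfb1, which sets the level of fructose 2,6-bisphosphate in liver, was at 34.9, 28.3 and 37.0 CPM in the MMI libraries and 58.1, 78.6 and 64.1 CPM in the MMI+T3 libraries (log2 fold change 1.00, SE 0.16, adjusted p = 0.00124). Both had groups apart.

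Glycogen genes changed in part (3 higher and 3 lower of 17 tested, median log2 fold change 0.082). Ppp1r3c, which targets protein phosphatase 1 to glycogen and favours its synthesis, was at 297, 274 and 140.4 CPM in the MMI libraries and 13.4, 28.8 and 22.7 CPM in the MMI+T3 libraries (log2 fold change -3.45, SE 0.33, adjusted p = 4.58e-05). Pygl, the liver glycogen phosphorylase, was at 355, 389 and 283 CPM in the MMI libraries and 658, 871 and 705 CPM in the MMI+T3 libraries (log2 fold change 1.12, SE 0.17, adjusted p = 0.0011). Ugp2, which makes the UDP-glucose used for glycogen, was at 598, 810.1 and 462 CPM in the MMI libraries and 258, 350.1 and 304 CPM in the MMI+T3 libraries (log2 fold change -1.04, SE 0.21, adjusted p = 0.0061). Glycogen genes called higher were 1 without the first MMI, the first MMI+T3 or the third MMI+T3 library. The lowest control of Ppp1r3c, the third, was still well above the highest treated library.

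Insulin signalling had 3 higher and 2 lower of 22 tested, median log2 fold change 0.0091, and those lower were 4 without the third MMI library. Akt1 was at 63.1, 68.2 and 56.6 CPM in the MMI libraries and 224, 208 and 212 CPM in the MMI+T3 libraries (log2 fold change 1.78, SE 0.13, adjusted p = 8.74e-06). Irs2, an insulin receptor substrate, was at 28.7, 34.7 and 25.8 CPM in the MMI libraries and 9.69, 14.6 and 8.54 CPM in the MMI+T3 libraries (log2 fold change -1.44, SE 0.21, adjusted p = 0.00079). Trib3, a pseudokinase that inhibits Akt, was at 15.2, 11.1 and 17.0 CPM in the MMI libraries and 3.6, 2.88 and 3.87 CPM in the MMI+T3 libraries (log2 fold change -2.06, SE 0.22, adjusted p = 0.0001). None of these genes had overlapping groups.

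Sterol genes rose nearly together: cholesterol synthesis had 18 higher and 0 lower of 20 tested, median log2 fold change 1.52. The treated libraries differed among themselves, since the second was the lowest in most members. Pmvk, phosphomevalonate kinase, was at 38.6, 42.7 and 34.5 CPM in the MMI libraries and 139, 94.3 and 200.02 CPM in the MMI+T3 libraries (log2 fold change 1.90, SE 0.24, adjusted p = 0.000288). The second treated library was the lowest of its group for Pmvk and was above every control. Srebf2, which encodes the sterol-sensing factor of this pathway, was at 68.6, 89.9 and 66.9 CPM in the MMI libraries and 132, 116 and 143 CPM in the MMI+T3 libraries (log2 fold change 0.79, SE 0.15, adjusted p = 0.00474).

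Lipoprotein genes were divided (6 higher and 6 lower of 25 tested, median log2 fold change -0.15). Sort1, a sorting receptor of lipoprotein export, was at 15.5, 14.4 and 20.4 CPM in the MMI libraries and 108, 89.9 and 79.8 CPM in the MMI+T3 libraries (log2 fold change 2.46, SE 0.17, adjusted p = 6.8e-06). Apoa4 was at 102, 115 and 89.0 CPM in the MMI libraries and 349, 412 and 364 CPM in the MMI+T3 libraries (log2 fold change 1.88, SE 0.15, adjusted p = 1.28e-05). Among the members lower, Lpl, lipoprotein lipase, was at 257, 198 and 230.3 CPM in the MMI libraries and 44.6, 55.8 and 35.6 CPM in the MMI+T3 libraries (log2 fold change -2.33, SE 0.18, adjusted p = 1.28e-05), every treated library below a level that every control exceeded several-fold. Vldlr, the VLDL receptor, was at 10.2, 19.9 and 12.4 CPM in the MMI libraries and 0.688, 1.39 and 1.16 CPM in the MMI+T3 libraries (log2 fold change -3.71, SE 0.33, adjusted p = 3.02e-05).

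Bile acid transporters moved in both directions. Slc51b, the beta subunit of the basolateral exporter, was at 0.0468, 0.221 and 0.33 CPM in the MMI libraries and 5.82, 4.02 and 4.67 CPM in the MMI+T3 libraries (log2 fold change 4.59, SE 0.47, adjusted p = 7.69e-05). Abcc3, a basolateral exporter of conjugates, was at 771, 952 and 774 CPM in the MMI libraries and 122, 91.5 and 161 CPM in the MMI+T3 libraries (log2 fold change -2.74, SE 0.21, adjusted p = 1.22e-05). Abcb11, the canalicular bile salt export pump, was at 718, 769.8 and 605 CPM in the MMI libraries and 1070.5, 1221 and 1199 CPM in the MMI+T3 libraries (log2 fold change 0.74, SE 0.15, adjusted p = 0.00678). The groups were apart in all 3. Of 20 genes of transport and signalling 3 were higher and 7 lower, and the latter were 4 without the second MMI or the second MMI+T3 library and 3 without the first MMI+T3 library. Cyp39a1, which hydroxylates the oxysterol 24-hydroxycholesterol, was at 12.8, 21.4 and 4.68 CPM in the MMI libraries and 68.1, 49.8 and 87.4 CPM in the MMI+T3 libraries (log2 fold change 2.39, SE 0.41, adjusted p = 0.00248).

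Amino acid genes changed at single steps. Oat, ornithine aminotransferase, was at 1214, 608 and 977 CPM in the MMI libraries and 123.30, 117 and 146 CPM in the MMI+T3 libraries (log2 fold change -2.85, SE 0.24, adjusted p = 2.07e-05). Prodh, which starts proline breakdown, was at 172, 174 and 166 CPM in the MMI libraries and 599.9, 640.5 and 858 CPM in the MMI+T3 libraries (log2 fold change 2.03, SE 0.17, adjusted p = 1.64e-05). Tdo2, which starts tryptophan breakdown, was at 2231, 2592 and 1531 CPM in the MMI libraries and 656, 1029 and 814 CPM in the MMI+T3 libraries (log2 fold change -1.35, SE 0.23, adjusted p = 0.00217). All had groups apart, with the second MMI library lowest of the controls for Oat and highest for Tdo2. Of 45 genes of amino acid catabolism 3 were higher and 10 lower. The count of those lower was 4, 6, 3, 4 and 5 without the first or second MMI library or the first, the second or the third MMI+T3 library, and those higher were 1 without the first MMI+T3 or the third MMI+T3 library.

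Psat1, the phosphoserine aminotransferase of serine synthesis, was at 0.468, 0.397 and 0.551 CPM in the MMI libraries and 5.35, 4.42 and 4.47 CPM in the MMI+T3 libraries (log2 fold change 3.32, SE 0.32, adjusted p = 4.53e-05). Shmt1, the cytosolic serine hydroxymethyltransferase, was at 207, 213 and 152 CPM in the MMI libraries and 440.2, 503 and 491 CPM in the MMI+T3 libraries (log2 fold change 1.33, SE 0.16, adjusted p = 0.000241). Glul, the glutamine synthetase of hepatocytes around the central vein, was at 593, 356 and 727 CPM in the MMI libraries and 1381, 1345 and 1509.5 CPM in the MMI+T3 libraries (log2 fold change 1.34, SE 0.23, adjusted p = 0.00251). All treated libraries were above the highest control in these genes. Etnppl, which breaks down phosphoethanolamine, was at 339, 495 and 278 CPM in the MMI libraries and 25.9, 27.3 and 27.1 CPM in the MMI+T3 libraries (log2 fold change -3.79, SE 0.22, adjusted p = 1.42e-06). Of the urea cycle and ammonia list, 2 were higher and 2 lower of 14. The former were 1 without the first MMI or any MMI+T3 library, and the latter 0 without the first MMI, the second MMI, the first MMI+T3 or the third MMI+T3 library and 1 without the second MMI+T3 library.

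Amino acid transporters were mixed (6 higher and 3 lower of 21 tested, median log2 fold change 0.28), with 3 higher when the second MMI+T3 library was left out. Slc3a1, a subunit of the cystine and dibasic amino acid transporter, was at 21.3, 20.3 and 13.7 CPM in the MMI libraries and 87.9, 66.3 and 87.8 CPM in the MMI+T3 libraries (log2 fold change 2.12, SE 0.19, adjusted p = 2.95e-05). Slc7a5, which carries large neutral amino acids and also thyroid hormones, was at 1.4, 3.04 and 3.08 CPM in the MMI libraries and 8.42, 7.85 and 10.6 CPM in the MMI+T3 libraries (log2 fold change 1.84, SE 0.30, adjusted p = 0.00159). Slc7a2, a transporter of arginine and lysine, was at 372, 551 and 508 CPM in the MMI libraries and 137, 163 and 185 CPM in the MMI+T3 libraries (log2 fold change -1.56, SE 0.18, adjusted p = 0.000178). These 3 had groups that did not overlap.

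Among drug- and steroid-metabolizing enzymes, more members were called lower than higher in each list but the sulfotransferases, and many were not called. The members of these families are close copies and may share reads. The Cyp1 to Cyp3 families had 8 higher and 15 lower of 44 tested, median log2 fold change -0.40. Cyp2c23, an arachidonate epoxygenase, was at 608, 540.1 and 441 CPM in the MMI libraries and 39.9, 33.0 and 40.3 CPM in the MMI+T3 libraries (log2 fold change -3.81, SE 0.18, adjusted p = 4.84e-07). Cyp2e1, which oxidizes ethanol and acetaminophen, was at 5553, 4775 and 4415 CPM in the MMI libraries and 1605, 1602 and 1427 CPM in the MMI+T3 libraries (log2 fold change -1.67, SE 0.16, adjusted p = 5.78e-05). Cyp3a59 ran against the family at 73.3, 109 and 51.8 CPM in the MMI libraries and 284, 352 and 372 CPM in the MMI+T3 libraries (log2 fold change 2.11, SE 0.24, adjusted p = 0.000169). All groups were apart. The factors CAR (Nr1i3) and PXR (Nr1i2), which induce many of these genes, had log2 fold changes of -1.82 ± 0.24 (adjusted p = 0.000385) and -0.42 ± 0.15 (adjusted p = 0.0803).

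The Cyp4 family had 0 higher and 7 lower of 15 tested, median log2 fold change -0.57. Glutathione enzymes had 3 higher and 14 lower of 33 tested, median log2 fold change -0.44. Gclc, the catalytic subunit of the enzyme that limits glutathione synthesis, was at 1458, 1944 and 1494 CPM in the MMI libraries and 520.0, 558 and 419 CPM in the MMI+T3 libraries (log2 fold change -1.71, SE 0.18, adjusted p = 8.84e-05). Mgst3, a microsomal transferase, was at 69.0, 91.3 and 105.20 CPM in the MMI libraries and 8.52, 4.82 and 16.3 CPM in the MMI+T3 libraries (log2 fold change -3.16, SE 0.36, adjusted p = 0.000149). Gstt1 rose instead, at 312, 304 and 256 CPM in the MMI libraries and 887, 881 and 908 CPM in the MMI+T3 libraries (log2 fold change 1.62, SE 0.14, adjusted p = 2.71e-05). Within each of these genes the libraries of a group lay on 1 side of the other group. NRF2 targets, which include several of these genes, had 2 higher and 12 lower of 27 tested, median log2 fold change -0.54, and 7 were lower without the first MMI+T3 library. Those higher were 1 without the first MMI, the third MMI or any MMI+T3 library.

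Sulfotransferase genes rose in part (5 higher and 1 lower of 10 tested, median log2 fold change 0.65), and the member lower was lost without the first MMI, the first MMI+T3 or the third MMI+T3 library. The glucuronosyltransferases had 2 higher and 4 lower of 20 tested, median log2 fold change -0.39, and those lower were 8 without the third MMI library. Papss2, which makes the sulfate donor, was at 155, 136 and 97.1 CPM in the MMI libraries and 880.5, 839 and 989 CPM in the MMI+T3 libraries (log2 fold change 2.80, SE 0.19, adjusted p = 5.17e-06), above every control in each treated library. Sult1e1, estrogen sulfotransferase, was at 0.281, 0.0882 and 0.0551 CPM in the MMI libraries and 1.27, 14.4 and 5.32 CPM in the MMI+T3 libraries (log2 fold change 5.54, SE 0.92, adjusted p = 0.0019), with a wide spread in the treated group. Ugt2b37, a glucuronosyltransferase, was at 2.71, 1.41 and 2.48 CPM in the MMI libraries and 121, 116 and 44.1 CPM in the MMI+T3 libraries (log2 fold change 5.42, SE 0.41, adjusted p = 1.07e-05), with the third treated library lowest. Ces3b, a carboxylesterase, was at 273, 127 and 176 CPM in the MMI libraries and 1134, 919 and 769 CPM in the MMI+T3 libraries (log2 fold change 2.29, SE 0.27, adjusted p = 0.000178), whereas Ces1f was at 611, 636 and 487 CPM in the MMI libraries and 71.0, 74.5 and 72.8 CPM in the MMI+T3 libraries (log2 fold change -2.99, SE 0.15, adjusted p = 6.99e-07). The carboxylesterase list had 3 higher and 6 lower of 14 tested, median log2 fold change -0.15.

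Steroid dehydrogenases and reductases were 1 higher and 7 lower of 17. The gene higher was Hsd17b2, which inactivates estradiol and testosterone, at 158, 131 and 139 CPM in the MMI libraries and 284, 345 and 264 CPM in the MMI+T3 libraries (log2 fold change 1.06, SE 0.15, adjusted p = 0.000636). Cyp17a1, which makes androgens in steroid-forming tissues, was at 2.43, 3.4 and 3.8 CPM in the MMI libraries and 157, 172 and 299 CPM in the MMI+T3 libraries (log2 fold change 6.03, SE 0.30, adjusted p = 6.03e-07). The treated libraries were far above all controls for Cyp17a1. The count of those higher was 2 without the third MMI+T3 library.

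Secreted plasma proteins changed in both directions, and acute phase proteins mostly rose (12 higher and 1 lower of 22 tested, median log2 fold change 1.28). Saa2 and Saa1, near copies that encode serum amyloid A, were at 14.1, 25.6 and 17.8 CPM in the MMI libraries and 2519, 1590.0 and 2460.0 CPM in the MMI+T3 libraries (log2 fold change 6.83, SE 0.31, adjusted p = 4.18e-07) and at 19.4, 34.2 and 27.1 CPM in the MMI libraries and 2061, 1329.5 and 2161 CPM in the MMI+T3 libraries (log2 fold change 6.10, SE 0.29, adjusted p = 4.85e-07). Lcn2, a lipocalin that withholds iron carriers from bacteria, was at 3.88, 5.87 and 5.01 CPM in the MMI libraries and 1003, 97.3 and 172 CPM in the MMI+T3 libraries (log2 fold change 6.43, SE 0.84, adjusted p = 0.000399). Its first treated library was several times above the other treated libraries, which still lay far above the controls. Orm2 was at 15.7, 12.6 and 19.4 CPM in the MMI libraries and 185, 101 and 392 CPM in the MMI+T3 libraries (log2 fold change 3.83, SE 0.43, adjusted p = 0.000142) and Saa3 at 2.43, 4.32 and 3.96 CPM in the MMI libraries and 114, 47.2 and 32.4 CPM in the MMI+T3 libraries (log2 fold change 4.17, SE 0.45, adjusted p = 0.000107), with the highest treated library being the third for the former and the first for the latter. Summed neutrophil markers, 4 genes, were at 3.84, 5.03 and 6.94 CPM in the MMI and 4.92, 7.5 and 4.92 CPM in the MMI+T3 libraries, and macrophage markers rose in the same libraries. The part of these cells in the change was not tested.

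Serpins outside this list included Serpinb1a, an inhibitor of neutrophil proteases, at 50.6, 47.8 and 32.4 CPM in the MMI libraries and 3.02, 4.77 and 3.67 CPM in the MMI+T3 libraries (log2 fold change -3.51, SE 0.23, adjusted p = 3.68e-06). Serpina12, which encodes vaspin, was at 4.72, 1.54 and 8.75 CPM in the MMI libraries and 49.1, 38.0 and 29.3 CPM in the MMI+T3 libraries (log2 fold change 2.97, SE 0.45, adjusted p = 0.000963). Serpina3n was at 245, 266 and 179 CPM in the MMI libraries and 1986, 776 and 676 CPM in the MMI+T3 libraries (log2 fold change 2.32, SE 0.37, adjusted p = 0.00146), highest in the first treated library as Lcn2 was. The 32 serpins tested had 9 higher and 4 lower, and 5 were higher without the first MMI+T3 library. Coagulation genes were near the background (2 higher and 2 lower of 27 tested, median log2 fold change 0.14), with 1 without the first MMI, the second MMI or any MMI+T3 library for those higher and 1 without the first MMI or any MMI+T3 library for those lower.

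Among hepatokines (8 higher and 4 lower of 24 tested, median log2 fold change -0.11, and 5 higher without the first MMI+T3 library), Hamp2, a copy of the hepcidin gene, was at 295, 258 and 275 CPM in the MMI libraries and 12.0, 23.4 and 40.2 CPM in the MMI+T3 libraries (log2 fold change -3.45, SE 0.35, adjusted p = 6.81e-05). Fgl1 was at 222, 204 and 201 CPM in the MMI libraries and 827, 577 and 764 CPM in the MMI+T3 libraries (log2 fold change 1.79, SE 0.17, adjusted p = 3.62e-05). The groups stayed apart in both genes. Inhbe, the activin E subunit, was at 70.1, 66.1 and 50.1 CPM in the MMI libraries and 16.1, 12.9 and 6.48 CPM in the MMI+T3 libraries (log2 fold change -2.39, SE 0.28, adjusted p = 0.000178). Enho, which encodes adropin, was at 6.36, 1.46 and 5.17 CPM in the MMI libraries and 40.6, 11.2 and 48.6 CPM in the MMI+T3 libraries (log2 fold change 2.96, SE 0.56, adjusted p = 0.00418), with both second libraries the lowest of their groups. The groups of Inhbe and Enho did not overlap either.

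Single genes of growth hormone signalling and single sex-biased genes were among the largest changes. The growth hormone and IGF list had 6 higher and 1 lower of 24 tested, median log2 fold change 0.16. Those higher were 4 to 7 over the alternatives. Cux2, a female-biased repressor of male-biased genes, was at 0.421, 0.706 and 0.826 CPM in the MMI libraries and 81.5, 66.4 and 92.2 CPM in the MMI+T3 libraries (log2 fold change 6.94, SE 0.24, adjusted p = 1.02e-07). Stat5a and Stat5b, which carry the growth hormone signal to the nucleus, were at 11.5, 13.4 and 20.5 CPM in the MMI libraries and 62.1, 63.1 and 65.9 CPM in the MMI+T3 libraries (log2 fold change 2.08, SE 0.20, adjusted p = 4.53e-05) and at 60.2, 61.0 and 66.0 CPM in the MMI libraries and 141, 160.2 and 173 CPM in the MMI+T3 libraries (log2 fold change 1.34, SE 0.13, adjusted p = 5.17e-05). The groups of the 3 genes were apart. Igf1, the main growth factor made by liver under growth hormone, was at 482, 312 and 369 CPM in the MMI libraries and 666, 642 and 502 CPM in the MMI+T3 libraries (log2 fold change 0.64, SE 0.19, adjusted p = 0.0397), and its call was lost without the second or the third MMI or the first or second MMI+T3 library. Cish, a feedback inhibitor of the same pathway, spread widely at 13.8, 5.21 and 5.39 CPM in the MMI libraries and 79.8, 11.03 and 26.4 CPM in the MMI+T3 libraries (log2 fold change 2.26, SE 0.62, adjusted p = 0.0294), and DESeq2 and limma-voom did not call it.

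Male-biased genes had 8 higher and 4 lower of 21 tested, median log2 fold change 0.66, and female-biased genes 4 higher and 4 lower of 13 tested, median log2 fold change -0.43. Beyond Mup genes, Selenbp2 was at 109.6, 26.2 and 99.3 CPM in the MMI libraries and 1087, 1315 and 533 CPM in the MMI+T3 libraries (log2 fold change 3.64, SE 0.50, adjusted p = 0.000562). Nudt7, a peroxisomal CoA hydrolase, was at 171, 69.2 and 128 CPM in the MMI libraries and 641, 916 and 543 CPM in the MMI+T3 libraries (log2 fold change 2.51, SE 0.31, adjusted p = 0.000277). In the opposite direction, Cyp4a12b was at 107, 79.7 and 103 CPM in the MMI libraries and 9.69, 15.9 and 6.33 CPM in the MMI+T3 libraries (log2 fold change -3.18, SE 0.29, adjusted p = 3.01e-05). The second MMI library was the lowest of the controls in each of the 3. Slc22a27, an anion transporter with female-biased expression, was at 1.73, 3.57 and 1.87 CPM in the MMI libraries and 14.1, 7.85 and 24.5 CPM in the MMI+T3 libraries (log2 fold change 2.68, SE 0.42, adjusted p = 0.00119). The female-biased counts were 7 higher with no filter on low counts or with DESeq2, and 2 lower with a filter at 50 counts or with limma-voom.

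Genes of general protein synthesis had few called members. Cytosolic ribosomal proteins had 0 higher and 3 lower of 83 tested, median log2 fold change -0.22. In 26 of them all treated libraries were below all controls and in 1 all were above. Of all tested genes, 35.4% had groups apart, counting both directions together. Of the 83 ribosomal members 9 had a positive fold change, so most leaned lower by a small amount. Those called lower were 0 without the first MMI, the first MMI+T3 or the second MMI+T3 library and 8 without the second MMI library. Ribosome biogenesis had 1 higher and 2 lower of 40 tested, median log2 fold change -0.13, with 0 without the first MMI, the second MMI+T3 or the third MMI+T3 library for those lower. Proteasome subunits had 2 higher and 0 lower of 38 tested, median log2 fold change -0.074, with 1 without the first MMI, the second MMI, the first MMI+T3 or the third MMI+T3 library for those higher and 3 without the third MMI library for those lower. The unfolded protein response had 0 higher and 3 lower of 26, where Herpud1, which serves ER-associated degradation, was at 719.9, 512 and 661 CPM in the MMI libraries and 264, 310.1 and 304 CPM in the MMI+T3 libraries (log2 fold change -1.11, SE 0.16, adjusted p = 0.00083). Hspb1, a small heat shock protein, was at 43.4, 41.8 and 52.2 CPM in the MMI libraries and 15.8, 14.0 and 18.3 CPM in the MMI+T3 libraries (log2 fold change -1.51, SE 0.15, adjusted p = 6.5e-05). Atf5, a factor of the stress response, was at 366, 375 and 343 CPM in the MMI libraries and 765, 779 and 956 CPM in the MMI+T3 libraries (log2 fold change 1.21, SE 0.15, adjusted p = 0.000243). The groups of these 3 genes did not overlap.

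Autophagy and lysosome genes changed at a few members. Ulk1, the kinase that starts autophagy, was at 53.3, 52.6 and 69.8 CPM in the MMI libraries and 144, 215 and 238 CPM in the MMI+T3 libraries (log2 fold change 1.76, SE 0.20, adjusted p = 0.00015). Ulk2 was at 76.2, 69.1 and 52.0 CPM in the MMI libraries and 174, 206 and 139 CPM in the MMI+T3 libraries (log2 fold change 1.40, SE 0.19, adjusted p = 0.000438). Bnip3, a receptor for the removal of mitochondria, was at 269, 286 and 247 CPM in the MMI libraries and 104.56, 91.2 and 139.6 CPM in the MMI+T3 libraries (log2 fold change -1.26, SE 0.17, adjusted p = 0.000486). All were apart between the groups. The autophagy list had 4 higher and 4 lower of 28 tested, median log2 fold change -0.061, of which 1 or 2 were lower without the first MMI or any MMI+T3 library or with no filter. Ctsc, a lysosomal protease, was at 47.4, 68.6 and 31.8 CPM in the MMI libraries and 198, 238 and 155 CPM in the MMI+T3 libraries (log2 fold change 1.99, SE 0.26, adjusted p = 0.000386).

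Of the cell cycle genes, 4 were higher and 0 lower of 35 tested, with a median log2 fold change of 0.63. Ccne1, cyclin E1, was at 0.234, 0.0882 and 0.826 CPM in the MMI libraries and 3.44, 3.58 and 1.41 CPM in the MMI+T3 libraries (log2 fold change 2.92, SE 0.65, adjusted p = 0.0109). DNA replication had 4 higher and 1 lower of 33 tested, median log2 fold change -0.048, with 2 without the first MMI or the first MMI+T3 library for those higher and 2 without the third MMI library for those lower. Rrm2, a ribonucleotide reductase subunit, was at 2.57, 3.4 and 3.74 CPM in the MMI libraries and 22.6, 31.1 and 33.1 CPM in the MMI+T3 libraries (log2 fold change 3.16, SE 0.21, adjusted p = 4.24e-06). Mcm10, a replication initiation factor and the member lower, was at 61.6, 45.8 and 63.1 CPM in the MMI libraries and 16.5, 9.44 and 8.94 CPM in the MMI+T3 libraries (log2 fold change -2.29, SE 0.24, adjusted p = 7.69e-05). Inhibitors of the cell cycle and targets of p53 had 2 higher and 4 lower of 20 tested, median log2 fold change -0.17, and of these Gadd45a, a growth arrest gene, was at 3.7, 7.37 and 6.61 CPM in the MMI libraries and 26.0, 17.8 and 25.1 CPM in the MMI+T3 libraries (log2 fold change 1.96, SE 0.25, adjusted p = 0.000374). Each gene had groups apart. In the clock (3 higher and 3 lower of 23 tested, median log2 fold change 0.038), Bhlhe40 was at 39.1, 94.5 and 43.2 CPM in the MMI libraries and 351, 259.6 and 318 CPM in the MMI+T3 libraries (log2 fold change 2.39, SE 0.31, adjusted p = 0.000333) and Nr1d1, which encodes REV-ERBα, at 79.0, 44.8 and 93.0 CPM in the MMI libraries and 9.9, 27.1 and 10.8 CPM in the MMI+T3 libraries (log2 fold change -2.18, SE 0.38, adjusted p = 0.00252). The hour of killing is not given per library in the sources used here, and its part in these changes was not tested.

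Markers of other cells in the liver were read to see which populations moved with T3. All 18 macrophage markers were called higher (median log2 fold change 1.59), and their summed level was 338, 399 and 341 CPM in the MMI libraries and 848, 1036 and 645 CPM in the MMI+T3 libraries. In bulk RNA a change in the number of cells and one in the RNA per cell cannot be told apart. Marco, a scavenger receptor of Kupffer cells, was at 1.5, 2.43 and 2.09 CPM in the MMI libraries and 36.3, 28.5 and 10.1 CPM in the MMI+T3 libraries (log2 fold change 3.63, SE 0.43, adjusted p = 0.000197). Clec4f, a lectin restricted to Kupffer cells, was at 23.6, 30.4 and 35.7 CPM in the MMI libraries and 83.2, 159 and 81.9 CPM in the MMI+T3 libraries (log2 fold change 1.85, SE 0.26, adjusted p = 0.00064). Every treated library was above every control for both, and the third treated library was the lowest of its group.

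None of the 19 endothelial and 19 stellate cell markers was called by edgeR, with median log2 fold changes of -0.12 and -0.13, and T and NK cell markers had 0 of 10. The numbers of these 3 lists were 1, 2 and 1 at an unadjusted p under 0.05, 0, 0 and 0 by DESeq2 and 0, 0 and 0 by limma-voom. Of 12 hepatocyte markers 1 was higher and 4 were lower, the former 0 without the second MMI, the first MMI+T3 or the second MMI+T3 library. Interferon-induced genes had 12 higher and 0 lower of 41 tested, median log2 fold change 0.55, and DESeq2 called 19 higher. Gbp3, a guanylate-binding protein, was at 4.54, 5.51 and 7.27 CPM in the MMI libraries and 39.2, 51.7 and 30.1 CPM in the MMI+T3 libraries (log2 fold change 2.81, SE 0.24, adjusted p = 1.86e-05). MHC class I genes had 8 higher of 22, a count that was 4 without the first MMI or the first or the third MMI+T3 library and 5 without the second MMI library. MHC class II genes had 0 of 9 by edgeR, 0 at an unadjusted p under 0.05, 0 by DESeq2 and 0 by limma-voom. H2-Q1, a class Ib gene with close copies, was at 0.982, 0.706 and 3.36 CPM in the MMI libraries and 39.5, 47.6 and 47.2 CPM in the MMI+T3 libraries (log2 fold change 4.78, SE 0.41, adjusted p = 2.3e-05).

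Ighm, the constant region of IgM that marks B cells, had the largest change among the B and plasma cell markers. It was at 4.26, 3.26 and 6.94 CPM in the MMI libraries and 329.6, 435 and 523 CPM in the MMI+T3 libraries (log2 fold change 6.49, SE 0.31, adjusted p = 4.84e-07), every treated library far above every control. The other 14 B and plasma cell markers summed to 46.9, 30.97 and 76.4 CPM in the MMI libraries and 68.6, 57.5 and 70.0 CPM in the MMI+T3 libraries, which overlap. Igkc, the light chain constant region, was at 10.01, 6.57 and 16.3 CPM in the MMI libraries and 16.0, 12.4 and 15.6 CPM in the MMI+T3 libraries (adjusted p = 0.346). Of those 14 markers 1 was called, Ighg2b, at 0.842, 0.971 and 2.75 CPM in the MMI libraries and 4.34, 4.32 and 5.93 CPM in the MMI+T3 libraries (log2 fold change 1.70, SE 0.42, adjusted p = 0.0188), a call lost without the first or second MMI or the third MMI+T3 library. Over the whole list, 14 of 15 tested members had a positive fold change, and the median log2 fold change was 0.80. All treated libraries were above all controls in 6 members and below all controls in 0. Of all tested genes, 35.4% had groups apart, counting both directions together. The count called higher, 2, was 1 without the first MMI or the second MMI library and 6 without the third MMI library.

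Matrix genes held a few large changes (6 higher and 5 lower of 50 tested, median log2 fold change -0.031). Col4a3, a basement membrane collagen, was at 0.234, 0.0882 and 0.495 CPM in the MMI libraries and 13.6, 13.1 and 19.1 CPM in the MMI+T3 libraries (log2 fold change 5.84, SE 0.39, adjusted p = 4.29e-06). Col15a1 was at 1.78, 6.04 and 3.74 CPM in the MMI libraries and 45.3, 43.1 and 42.0 CPM in the MMI+T3 libraries (log2 fold change 3.49, SE 0.32, adjusted p = 3.59e-05). Col5a3 moved down, at 88.2, 72.6 and 165 CPM in the MMI libraries and 18.1, 15.4 and 21.4 CPM in the MMI+T3 libraries (log2 fold change -2.57, SE 0.28, adjusted p = 0.000125). These 3 separated the groups, while the number of matrix genes called lower was 3 without the first or second MMI+T3 library.

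By gene type, long intergenic noncoding genes were called in 24.5% (32 higher and 46 lower of 318) and antisense genes in 20.4% (21 and 37 of 285), against 16.9% of 12561 protein-coding genes. The share of called genes rose with abundance, from 11.2% among the 2822 genes with the lowest mean CPM to 25.6% among the 2822 with the highest, where counting error is smaller. It was 20.5% on chromosome 4, which holds the Mup genes, 20.4% on chromosome 12 and 19.6% on chromosome 15, down to 12.4% on chromosome X and 0 of 20 genes on the mitochondrial chromosome.

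Replicate spread differed between the groups and between gene lists. Over 8630 genes with a mean of at least 10 CPM, the median SD of log2 CPM was 0.194 among MMI libraries and 0.134 among MMI+T3 libraries, and 67.3% of the genes had the larger SD in MMI. The common biological coefficient of variation was 0.204 within MMI and 0.162 within MMI+T3. With 3 libraries in each group an exact permutation test cannot go below p = 0.1, and the difference in spread was not tested.

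Lists deviated as blocks. Offsets were taken over the genes of a list with a mean of at least 10 CPM, which 12 of the 18 macrophage markers had. Each is the median over these genes of a library's log2 CPM minus the mean of the other libraries of its group. Mup genes lay 0.72 above, 1.27 below and 0.32 above that mean in the first, the second and the third MMI library. In the MMI+T3 libraries they lay 0.19 above, 0.48 above and 0.70 below it. Cholesterol synthesis genes lay 0.58 below it in the second MMI+T3 library and 0.47 above it in the third. Macrophage markers did the reverse in the same 2 libraries, 0.57 above in the second and 0.52 below in the third. Acute phase genes were 0.35 above in the first treated library, 0.49 below in the second and 0.21 below in the third.

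Some genes varied widely within a group. Hsd3b5, a male-specific steroid-metabolizing enzyme, was at 7.53, 0.309 and 2.42 CPM in the MMI libraries and 21.97, 92.1 and 0.753 CPM in the MMI+T3 libraries (adjusted p = 0.0749). Rgs16, a regulator of G protein signalling, was at 8.19, 10.4 and 16.0 CPM in the MMI libraries and 2.01, 29.9 and 111 CPM in the MMI+T3 libraries (adjusted p = 0.148). Slc15a2, a peptide transporter, was at 0.281, 16.9 and 19.8 CPM in the MMI libraries and 10.9, 10.9 and 1.76 CPM in the MMI+T3 libraries (adjusted p = 0.682). The groups overlapped in all 3, and none passed the test. Socs2, a feedback inhibitor of growth hormone signalling, was at 55.0, 7.63 and 14.8 CPM in the MMI libraries and 21.9, 14.2 and 9.75 CPM in the MMI+T3 libraries (adjusted p = 0.421), with the first MMI library highest, and Cyp26b1, which degrades retinoic acid, at 18.1, 12.7 and 2.26 CPM in the MMI libraries and 7.84, 2.83 and 23.8 CPM in the MMI+T3 libraries (adjusted p = 0.971), with the lowest and highest libraries in different groups.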

How the data were processed

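Liver RNA of the 3 MMI and 3 MMI+T3 libraries was used. The deposited table holds raw read counts per gene for these 6 libraries, made by the authors on GRCm38 with Ensembl gene models. The study's methods name STAR as the aligner, and the submitters' processing notes name HISAT2 2.1.0 and HTSeq 0.6.1p1, so which tool made the counts, and whether strand was used, is not settled. The lowest summed count of a listed gene was 10, and 21 symbols that a spreadsheet had turned into dates were restored from gene IDs. Of 17758 IDs, 17748 were found in GENCODE M21, which gave coordinates and gene types. Depth was 17256776 to 22599227 counts per library.

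Genes passing filterByExpr with a minimum count of 10 were scaled by the trimmed mean of M values (TMM) and tested with edgeR 4.0.16 (R 4.3.3) by a quasi-likelihood fit on the group alone, two-sided, with Benjamini-Hochberg adjustment. Changes over 2-fold used glmTreat. Alternatives were other scalings and filters, DESeq2 1.42.0, limma-voom 3.58.1, a replicate term, leaving out mitochondrial genes and leaving out each library. Scripts were tested on simulated counts. A floor of 3 counts was used for groups at 0, and ratios of pooled counts carry exact binomial 95% intervals.

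The comparison, the gene lists and the rule for named genes were chosen with earlier results of these data known. The rule took the 15 extreme called genes per direction at 5 CPM or more in the higher group whose groups did not overlap, leaving out predicted genes and pseudogenes, the 10 largest gains and losses, genes with at most 3 counts in 1 group, the 4 members of each list with the smallest adjusted p, the 8 genes with the largest spread per group and a few fixed genes. Further genes were named after their values were seen: the members of runs of adjacent genes, and Abcb11, Abcd3, Acot7, Ces3b, Clec4f, Cpt1a, Creb3l3, Cyp39a1, Cyp3a59, Elovl6, Enho, Igkc, Klf9, Mgll, Mgst3, Mup21, Nr3c1, Nudt7, Orm2, Plin2, Pmvk, Saa3, Selenbp2, Serpina3n, Slc16a10, Slc16a6 and Slc22a27. Some genes picked by this rule are not reported here. Columns of other libraries were not used.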

Additional observations from a re-analysis of the deposited data

How the results depend on the processing

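The number of genes called was 2184 to 2799 under the other scalings, filters and tools, against 2400, with DESeq2 highest, and 1659 to 2597 when a library was left out. The genes called higher were 1001 to 1494 and those called lower 658 to 1103 with a library left out; the lowest value of the latter came without the first MMI+T3 library. At a smaller fold threshold glmTreat called 979 genes over 1.5-fold and 1708 over 1.2-fold. Of the 2400 genes, 1396 were called in the same direction under every alternative that tested them. Among 432 genes followed singly, 351 were called, 296 of these under all alternatives, and none changed sign while called. The replicate numbers were entered as a block, which gave 2530 called genes, 1462 higher and 1068 lower. The deviations of same-numbered libraries correlated at 0.06, 0.004 and 0.172, and not every library correlated best with its own number. With 3 libraries per group, whose deviations are tied to a common mean, these correlations cannot decide whether numbers mark a pairing. The numbers were taken as names because the labels do not say that they mark one. Calls of small changes are limited by 3 libraries per group, by the wider spread of the MMI libraries and by low counts, and the level of single members of copied gene families may be limited by shared reads, which were not measured.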
